A study of Mus musculus with 10 samples.

Results

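The 10 genes described here encode some of the proteins that remove superoxide and peroxides in pancreatic islets. They are the glutathione peroxidases Gpx1, Gpx3, Gpx4, Gpx7 and Gpx8, the superoxide dismutases Sod1 and Sod2, catalase (Cat), peroxiredoxin 4 (Prdx4) and thioredoxin 1 (Txn1). They were chosen by name and are 10 of the 47340 genes with expression values. All 10 were detected in every library and passed the filter on low values. RNASeq was performed on islets from 12-wk-old male mice on chow, with 5 libraries from floxed control (FL) mice and 5 from mice with β cell deletion of FIT2 (βFIT2KO, KO), after overnight recovery in culture. The sample titles call the controls Flox, while their genotype entry reads wild type; the study describes mice with a floxed gene of FIT2 (Fitm2). In KO mice the same gene is deleted by Cre recombinase under a rat insulin II promoter, so that deletion is directed to β cells and the other islet cells keep the gene. The study also kept a line with the Cre transgene alone, but islets of that line are not analysed here, so the deletion and the Cre transgene cannot be told apart. Each library is taken as 1 mouse.

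Superoxide, a by-product of respiration, is turned into hydrogen peroxide by superoxide dismutases, of which Sod1 works in the cytosol and Sod2 in the mitochondrial matrix. Hydrogen peroxide is then cleared by catalase in peroxisomes, by glutathione peroxidases, which spend glutathione, and by peroxiredoxins, which are reduced by thioredoxin. Gpx1 is cytosolic and mitochondrial, Gpx3 is secreted, Gpx4 reduces lipid hydroperoxides within membranes, and Prdx4, Gpx7 and Gpx8 act in the endoplasmic reticulum (ER), where oxidative protein folding makes peroxide. β Cells are known for low catalase and low glutathione peroxidase activity compared with liver, and for sensitivity to peroxide.

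The glutathione peroxidases differ in the residue that attacks peroxide. In Gpx1, Gpx3 and Gpx4 it is selenocysteine, which the ribosome inserts at a TGA codon that would otherwise end the protein, and in Gpx7 and Gpx8 it is cysteine. The coding sequence around this codon is shown for the 5 genes because it divides the family into its selenium-dependent and cysteine-dependent members. Each line holds 30 bases from GENCODE release M21 transcripts (GRCm38), 5′ to 3′, with the codon in capitals.
Gpx1: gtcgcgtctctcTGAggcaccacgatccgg
Gpx3: gtagccagctacTGAggtctgacagaccaa
Gpx4: gtggcctcgcaaTGAggcaaaactgacgta
Gpx7: gtagctagcgaaTGTggcttcacagaccag
Gpx8: gtggctagtgacTGCcgcttcacagacaag
The annotation marks the TGA as selenocysteine in Gpx1 (codon 47, exon 1, chr9:108339451-108339453, plus strand), in Gpx3 (codon 73, exon 2, chr11:54907256-54907258, plus strand) and in Gpx4 (codon 129, exon 3, chr10:80054737-80054739, plus strand). The codons of Gpx7 (codon 56, exon 2, chr4:108403430-108403432, minus strand) and Gpx8 (codon 79, exon 2, chr13:113045661-113045663, minus strand) are those that align with the selenocysteine codon of Gpx1.

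Values are FPKM (RNA fragments scaled to gene length and library size). Levels of different genes are read on this per-length scale. Comparisons between mice depend on the scaling of the libraries, and results under 4 rescalings are given below. The sum of FPKM per library was 646233 to 675470 in FL and 627084 to 653292 in KO. Values of genes with very few reads moved in steps of 1 read, and these steps put the depth of the other libraries at 1.41 to 2.41 times that of FL replicate 1, with KO libraries at 1.51 to 2.06 times. Fitm2 was at 15.5 to 37.1 FPKM in FL and at 4.30 to 9.13 FPKM in KO, lower in every KO library (log2 fold change −1.58, adjusted p = 0.00228 from limma). Of the fixed β cell markers, Ins1, Ins2 and Iapp are listed at 0 in every library, as is the α cell marker Gcg, although islets express these hormones strongly, and the other β cell markers summed to 2273 to 2844 FPKM in FL and 1511 to 2124 FPKM in KO.

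Of the members called higher in KO islets, Gpx3 rose by 1.81-fold in FPKM, Gpx1 by 1.49-fold and Cat by 1.19-fold. Sod2 fell to 0.902 of its FL level, and the other 6 genes did not pass the threshold, among them Gpx7 at a ratio of means of 1.73. Genes were compared with limma on log2(FPKM + 1) over the 13065 genes that averaged 1 FPKM or more in either group. They were called at a Benjamini-Hochberg adjusted p of at most 0.05. Adding 1 makes the log2 fold change of a gene near 1 FPKM, such as Gpx7, smaller than its ratio of means implies. Of the 10 genes 4 were called, 3 as higher and 1 as lower in KO. Among all tested genes 25.5% were called, 9.05% as higher and 16.5% as lower, a split that depended on scaling. With median-ratio rescaling 24.0% were called, 12.4% as higher and 11.6% as lower, and with quantile normalization 24.5%, 11.4% and 13.1%. The median log2 fold change of the 10 genes was 0.20, compared with −0.056 over all tested genes, and 9 of the 10 estimates were above 0, as were 38.1% of all tested genes. Both values over all genes moved with scaling, the median to between −0.017 and −0.0024 and the share to between 46.3% and 49.5% under the 4 rescalings, where the median of the 10 genes was 0.25 to 0.26. FL and KO libraries did not overlap for 3 of the 10 genes, 2 with KO higher and 1 with KO lower, as for 19.1% of all tested genes (6.67% with KO higher and 12.5% with KO lower).

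**Figure D1:**
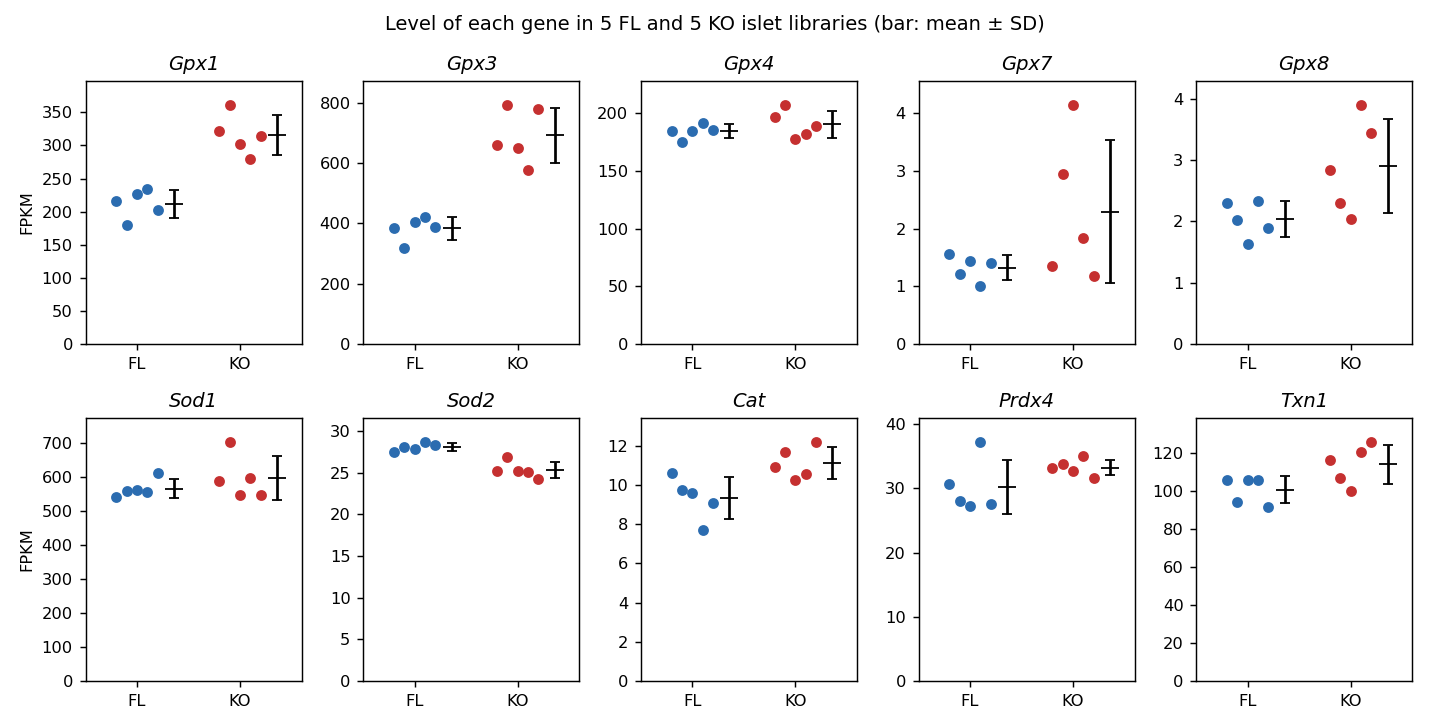
FPKM (linear axis from 0, a scale of its own for each gene) of the 10 genes in 5 FL (blue) and 5 KO (red) islet libraries, in the order of the replicate numbers, with the mean and SD as a black bar. For Gpx1 and Gpx3 all KO points lie above all FL points, for Sod2 all lie below, and the other 7 genes overlap.

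Gpx3 encodes the secreted, plasma-type glutathione peroxidase (ENSMUSG00000018339.11, chr11:54902453-54910377, plus strand, GRCm38). Across replicates 1 to 5 it was at 384, 320.4, 404, 422 and 387 FPKM in the FL replicates, against 661, 793, 649, 578 and 779 FPKM in the KO replicates. The lowest KO library was above the highest FL library. The spread was 9.98% of the mean in FL and 13.2% in KO. On the log2 scale the rise was 0.85 (limma, SE 0.10, 95% interval 0.63 to 1.07, adjusted p = 0.000161), which in fold terms is 1.54 to 2.09. The exact two-sided permutation test gave p = 0.00794, the smallest that 5 against 5 libraries allow. Gpx3 ranked 207 by size of change among the 1183 genes called higher, and its level in FL was above that of 98.5% of tested genes.

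Gpx1, the main intracellular glutathione peroxidase (ENSMUSG00000063856.7, chr9:108338903-108340343, plus strand), was at 217, 179.7, 226, 234 and 203 FPKM in the FL replicates, against 322, 361, 303, 279.7 and 315 FPKM in the KO replicates. Here too the groups were apart, with the lowest KO library above the highest FL library. On the log2 scale the rise was 0.58 (limma, SE 0.084, 95% interval 0.39 to 0.76, adjusted p = 0.00067), which in fold terms is 1.31 to 1.695, and the exact two-sided permutation p was 0.00794. FL replicate 2 was the lowest FL library for both genes and KO replicate 2 the highest KO library for both. The study itself lists Gpx1 and Gpx3 among changed genes drawn from these libraries, so their inclusion here is not independent of their direction. Both calls held under each of the 21 alternative settings, with log2 fold changes between 0.78 and 0.91 for Gpx3 and between 0.52 and 0.64 for Gpx1.

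Marker lists of other cells moved in both directions. The 6 macrophage markers summed to 117 to 143 FPKM in FL and 168.5 to 204 FPKM in KO, with 2 of 5 tested called higher, Lyz2 (lysozyme, log2 fold change 0.90, adjusted p = 0.00049) and Cd68 (0.68, adjusted p = 5.99e-05, both from limma). The 6 stellate and fibroblast markers summed to 10.1 to 17.96 FPKM in FL and 21.9 to 28.2 FPKM in KO, and all 4 that were tested were called higher, with Col3a1 rising most (log2 fold change 0.87, adjusted p = 0.00179 from limma). The 6 endothelial markers summed to 126 to 144 FPKM in FL and 149.8 to 197 FPKM in KO, with 4 of 6 called higher. The 11 acinar markers overlapped widely, at 4382 to 11730 FPKM in FL and 2894 to 21590 FPKM in KO, and 0 of 9 tested passed in limma, with 0 at an unadjusted p under 0.05. No marker of these 4 lists was at 0 in every library. The β cell markers given above were lower in KO, with 6 of 7 tested called lower, and so were the 6 α cell markers, with sums of 435 to 650.4 FPKM in FL and 288.5 to 429 FPKM in KO and 2 of 5 tested called lower. Of 5 δ and PP cell markers Sst was called lower and the sums overlapped. Of 5 duct markers tested Cftr was called higher and Krt7 lower, and the sums overlapped, with Cftr passing the filter only through its KO level (means of 0.0372 and 2.13 FPKM). The part of these cells in the changes of Gpx1 and Gpx3 was not tested. In bulk islet RNA, fewer cells of a type and less RNA per cell cannot be told apart.

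The promoters of these genes are printed because both rose without overlap between FL and KO libraries. Each is the 300-base RefSeq window (GRCm38.p6) from 250 bases before to 50 bases after the annotated start, on the gene's own strand, with matches on either strand to the CCAAT box (CCAAT) and the GC box (GGGCGG) in capitals.
Gpx1, chr9:108338830-108339129, plus strand: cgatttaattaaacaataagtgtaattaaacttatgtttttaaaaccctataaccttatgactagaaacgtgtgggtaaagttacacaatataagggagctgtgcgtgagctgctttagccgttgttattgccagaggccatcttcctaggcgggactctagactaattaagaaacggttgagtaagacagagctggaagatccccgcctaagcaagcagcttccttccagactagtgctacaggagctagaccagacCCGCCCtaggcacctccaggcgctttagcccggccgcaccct
Gpx3, chr11:54902604-54902903, plus strand: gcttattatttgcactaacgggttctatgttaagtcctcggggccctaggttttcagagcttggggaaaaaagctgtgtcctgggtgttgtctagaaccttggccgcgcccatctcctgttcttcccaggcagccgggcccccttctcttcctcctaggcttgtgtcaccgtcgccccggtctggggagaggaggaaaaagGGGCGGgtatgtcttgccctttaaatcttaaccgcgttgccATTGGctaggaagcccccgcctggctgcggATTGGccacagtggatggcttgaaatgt
The Gpx1 window holds 1 GC box and no CCAAT box, and the Gpx3 window holds 1 GC box and 2 CCAAT boxes. Among 32851 mouse promoter windows of this length, 35.7% hold a GC box and 37.4% a CCAAT box. The antioxidant response element core (TGACNNNGC), the sequence bound by NRF2, was looked for on both strands in the windows of all 10 genes and was found in Sod1 only, as GCGTGGTCA with its first base at −56 from the start site, compared with 12.4% of all windows. The ER stress response element (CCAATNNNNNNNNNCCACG, which contains the CCAAT box) was in none of the 10 and in 0.119% of all windows. A match is a run of letters in this window and no measure of binding.

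The remaining selenium-dependent member, Gpx4 (ENSMUSG00000075706.10, chr10:80047166-80056439, plus strand), did not differ detectably. It was at 184, 175, 184, 192 and 185 FPKM in the FL replicates, against 196, 207, 178, 182 and 189 FPKM in the KO replicates, and the groups overlapped. The log2 fold change was 0.05 (95% interval −0.06 to 0.16, adjusted p = 0.531 from limma), an interval that in fold terms runs from 0.957 to 1.116, and 0.017 without KO replicate 2. Isoforms of Gpx4 for cytosol, mitochondria and nucleus are summed in this value. A processed pseudogene, Gpx4-ps2, is annotated at chr10:45875291-45876086 but has no expression values here. Whether reads that fit both were split could therefore not be checked. Pseudogenes of the members were looked for only under a member's own name, so others could have been missed.

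Gpx7 and Gpx8, the cysteine-dependent peroxidases of the ER, were the least abundant members. Gpx7 (ENSMUSG00000028597.11, chr4:108400390-108406961, minus strand) was at 1.56, 1.22, 1.44, 1.00 and 1.41 FPKM in the FL replicates, against 1.36, 2.94, 4.14, 1.85 and 1.18 FPKM in the KO replicates. KO replicates 2 and 3 were high and KO replicate 4 was just above the FL range, while KO replicates 1 and 5 lay within the FL range. Its spread was 16.5% of the mean in FL and 54.1% in KO, and the log2 fold change of 0.43 did not pass the threshold (95% interval −0.05 to 0.90, adjusted p = 0.171 from limma). Without KO replicate 3 it was 0.25 (adjusted p = 0.309). Read from the steps of 1 read, and if all of its reads came from its longest transcript, Gpx7 rested on about 36 to 87 reads per FL library and 56 to 161 per KO library.

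Gpx8 (ENSMUSG00000021760.3, chr13:113042753-113046410, minus strand) was at 2.30, 2.03, 1.64, 2.34 and 1.89 FPKM in the FL replicates, against 2.84, 2.30, 2.04, 3.90 and 3.44 FPKM in the KO replicates, on about 46 to 90 and 61 to 140 reads. Of the KO libraries 3 were above every FL library and the other 2 lay within the FL range. The log2 fold change was 0.34 (95% interval 0.05 to 0.64, adjusted p = 0.0837 from limma), and it passed without KO replicate 3 (0.43, adjusted p = 0.0312). Its exact two-sided permutation p, not adjusted for the number of genes, was 0.0476, and 5 of the 10 members were at 0.05 or under in that test. The summed stellate and fibroblast markers were higher in KO as given above, and their part in the values of Gpx7 and Gpx8 was not tested. In the 2 KO libraries in which Gpx7 was highest, Gpx8 was at its 2 lowest KO values. Gpx8 lies within Cdc20b on the opposite strand, which is listed at 0 in every library.

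Of the dismutases, Sod2, the manganese enzyme of mitochondria (ENSMUSG00000006818.4, chr17:13006846-13040063, plus strand), fell slightly. Its FL values were 27.5, 28.1, 27.8, 28.7 and 28.3 FPKM and its KO values 25.2, 26.9, 25.2, 25.1 and 24.3 FPKM. The spread within a group was small, at 1.71% of the mean in FL and 3.70% in KO, and the highest KO library lay under the lowest FL library. Means were 28.1 ± 0.479 and 25.3 ± 0.937 FPKM (SD, n = 5), which on the log2 scale is −0.14 (limma, SE 0.039, 95% interval −0.23 to −0.056, adjusted p = 0.0221), with an exact two-sided permutation p of 0.00794. The call was lost under all 4 rescalings of the libraries, where the log2 fold change was −0.10 to −0.086 and the adjusted p 0.0623 to 0.116. It was also lost without FL replicate 5 (adjusted p = 0.0501), KO replicate 1 (0.0518) or KO replicate 4 (0.0519).

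Sod1, the copper-zinc enzyme of the cytosol (ENSMUSG00000022982.9, chr16:90220754-90226329, plus strand), was the most abundant member in FL islets. It was at 540.0, 559, 561, 555 and 613 FPKM in the FL replicates, against 589, 704, 548, 596 and 547 FPKM in the KO replicates. KO replicate 2 was above the other 9 libraries, which lay between 540.0 and 613 FPKM. The log2 fold change of 0.07 did not pass the threshold (95% interval −0.08 to 0.23, adjusted p = 0.493 from limma), which in fold terms is 0.943 to 1.17, and without KO replicate 2 it was 0.012. Its 3′ end overlaps Scaf4 on the opposite strand, which reached at most 12.6 FPKM.

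Cat (ENSMUSG00000027187.10, chr2:103453849-103485160, minus strand), the peroxisomal catalase, was at 10.6, 9.75, 9.61, 7.72 and 9.09 FPKM in the FL replicates, against 10.9, 11.7, 10.3, 10.6 and 12.2 FPKM in the KO replicates. Of the KO libraries 3 were above every FL library, and all 5 were above the FL median. Means were 9.35 ± 1.06 and 11.1 ± 0.814 FPKM (SD, n = 5), a rise on the log2 scale of 0.23 (limma, SE 0.078, 95% interval 0.062 to 0.40, adjusted p = 0.0485), with an exact two-sided permutation p of 0.0238. This call was lost without FL replicate 2, 3, 4 or 5 and without KO replicate 1, 2, 4 or 5 (adjusted p 0.0628 to 0.104), and kept under the 4 rescalings.

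Prdx4, the ER peroxiredoxin that uses peroxide to oxidize protein disulfide isomerases (ENSMUSG00000025289.15, chrX:155323918-155340754, minus strand), was at 30.7, 28.0, 27.3, 37.3 and 27.5 FPKM in the FL replicates, against 33.1, 33.7, 32.7, 35.0 and 31.7 FPKM in the KO replicates. Every KO library was above 4 of the FL libraries, and FL replicate 4 was above every KO library. The log2 fold change was 0.14 (95% interval −0.03 to 0.32, adjusted p = 0.215 from limma). Without FL replicate 4 it was 0.22 (adjusted p = 0.0122).

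Txn1 (ENSMUSG00000028367.5, chr4:57943373-57956411, minus strand), the cytosolic thioredoxin that returns peroxiredoxins to their active form, was at 106, 94.2, 106, 106 and 91.5 FPKM in the FL replicates, against 116, 107, 100.2, 120.5 and 126 FPKM in the KO replicates. Of the KO libraries 4 were above every FL library, and KO replicate 3 lay within the FL range. The log2 fold change of 0.18 did not pass the threshold (95% interval 0.02 to 0.33, adjusted p = 0.0983 from limma), and without KO replicate 3 it was 0.22 (adjusted p = 0.0391).

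**Figure D2:**
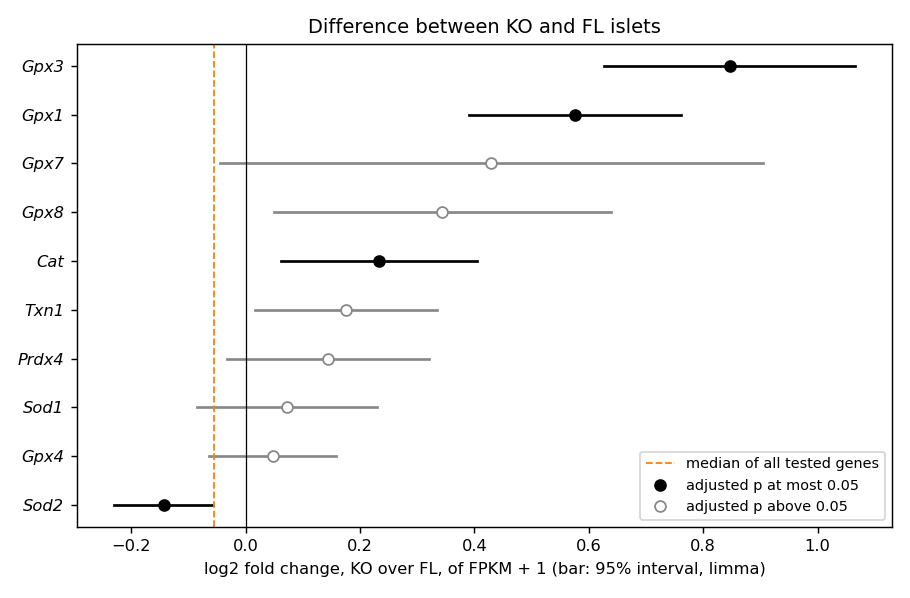
Log2 fold change (KO over FL, of FPKM + 1) of the 10 genes with the 95% interval from limma. Filled points passed an adjusted p of 0.05, and the dashed line is the median of all 13065 tested genes at −0.056. On this scale Gpx3 at 0.85 and Gpx1 at 0.58 lie to the right of the other 8 genes. Sod2 at −0.14 lies to the left of 0. With a pseudocount of 0.1 Gpx7 was at 0.61 and Gpx1 at 0.58.

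Set in order of FPKM within FL islets, the genes ran from Sod1 (566 FPKM) through Gpx3 (383), Gpx1 (212), Gpx4 (184), Txn1 (101), Prdx4 (30.2), Sod2 (28.1), Cat (9.35) and Gpx8 (2.04) to Gpx7 (1.33). Each neighbour held its place in all 5 FL libraries except Prdx4 and Sod2, whose difference of 0.091 ± 0.17 on the log2(FPKM + 1) scale (SD, n = 5) was smaller than its spread. Catalase mRNA was below that of 7 other members, and its level in FL islets exceeded that of 39.3% of tested genes, whereas Sod1 exceeded 99.2%. In KO islets Gpx3 (692 FPKM) moved past Sod1 (597 FPKM) and stood above it in 4 of 5 libraries, by 0.21 ± 0.20 log2 units. Gpx1 and Gpx4, which differed by 0.20 ± 0.11 in FL islets, differed by 0.73 ± 0.07 in KO islets. Prdx4 was above Sod2 in all 5 KO libraries, and the order of Gpx8 and Gpx7 held in 3 of 5 (SD, n = 5 for each).

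Summed over the 10 genes, FPKM was 1504, 1398, 1548, 1585 and 1547 in FL libraries and 1959, 2249, 1851, 1832 and 2029 in KO libraries. The sum was higher in each KO library than in any FL library, with means of 1516 ± 72.4 and 1984 ± 168 FPKM (SD, n = 5). Most of this difference of 468 FPKM lay in Gpx3 and Gpx1. Without those genes the sums averaged 921 ± 23.9 and 976 ± 73.6 FPKM (FL and KO, SD, n = 5), and the groups overlapped. Gpx3 held 22.9% to 26.6% of the sum in FL and 31.5% to 38.4% in KO, while Sod1 held 35.0% to 40.0% and 27.0% to 32.5%. The ratio of Gpx3 to Gpx1 stayed within 1.77 to 1.91 in FL libraries and ran from 2.05 to 2.47 in KO libraries. Sums, shares and ratios are given without a test because the genes were chosen with earlier results known.

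**Figure D3:**
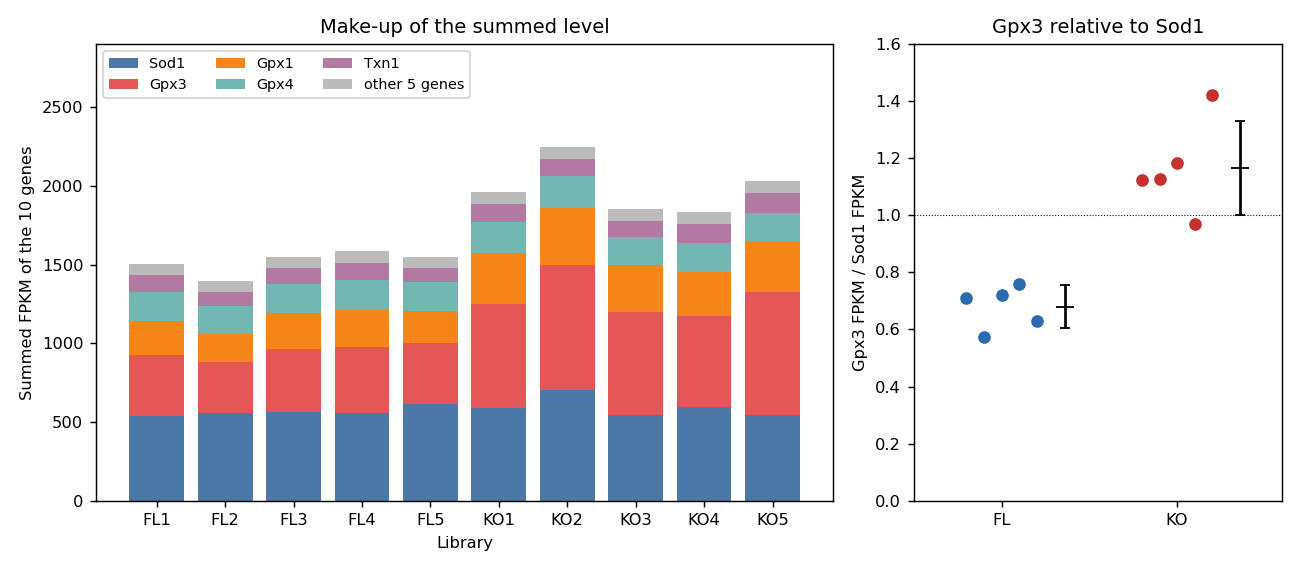
Left, FPKM of the 10 genes stacked by library, with 5 genes shown singly and the other 5 summed in grey. Right, FPKM of Gpx3 divided by FPKM of Sod1 in each library with mean and SD; the ratio is 0.573 to 0.759 in FL and 0.969 to 1.42 in KO.

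Other genes of the same chemistry were described from fixed lists of names, whose counts stand beside the 9.05% of all tested genes called higher and the 16.5% called lower. Of 10 further peroxide and superoxide enzymes 7 were tested, and 1 was higher and 1 lower in KO. Gpx2, a selenium-dependent peroxidase best known from gut epithelium, fell from 68.6 ± 7.74 to 35.4 ± 12.5 FPKM (SD, n = 5), by 0.99 on the log2 scale (limma, SE 0.19, adjusted p = 0.00353). Its FL values were 73.9, 63.7, 63.0, 79.7 and 62.7 FPKM and its KO values 39.6, 55.2, 24.1, 27.9 and 30.1 FPKM. No KO library reached the FL range, so Gpx2 moved opposite to Gpx1 and Gpx3. Ccs, the chaperone that loads copper onto Sod1, was called higher (log2 fold change 0.17, adjusted p = 0.0305 from limma) but not without FL replicate 1, 2, 3 or 4 or KO replicate 1, 2 or 3 (adjusted p up to 0.0764). The peroxiredoxins Prdx1, Prdx2, Prdx3, Prdx5 and Prdx6 were not called. Gpx5 is listed at 0 in every library.

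In the thioredoxin and glutathione systems 1 of 22 genes was called higher (4.55%) and 4 lower (18.2%), close to the shares of 9.05% and 16.5% over all tested genes, with a median log2 fold change of −0.02. Gss, which completes glutathione synthesis, rose from 18.01 ± 0.772 to 24.5 ± 1.54 FPKM (SD, n = 5, log2 fold change 0.42, adjusted p = 0.000229 from limma), and Glrx5, a mitochondrial glutaredoxin of iron-sulfur cluster assembly, fell from 92.4 ± 2.97 to 61.8 ± 5.91 FPKM (log2 fold change −0.58, adjusted p = 8.64e-05 from limma). Glrx, the cytosolic glutaredoxin, fell by 0.38 on the log2 scale (adjusted p = 0.0129 from limma). Txn2, the mitochondrial partner of Txn1, had a log2 fold change of −0.20 (adjusted p = 0.0332 from limma) and Txndc5 one of −0.12 (0.047), and neither was called under any of the 4 rescalings or without FL replicate 1, 3 or 4 or KO replicate 1, 3, 4 or 5 (Txndc5 also without FL replicate 2 or 5). Without the filter Txn2 was not called (adjusted p = 0.0515 from limma), and Txndc5 was called in 3 of its 21 alternatives.

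Among 19 genes of selenoprotein synthesis and other selenoproteins, 2 were higher (10.5%) and 4 lower (21.1%), also close to those shares. Sepp1, the selenium carrier selenoprotein P, rose from 380.4 ± 13.7 to 500.3 ± 32.5 FPKM (SD, n = 5, log2 fold change 0.39, adjusted p = 0.000456 from limma), and Dio1, a deiodinase, had a log2 fold change of 0.57 (adjusted p = 0.0342), a call lost without FL replicate 1 or 3 or KO replicate 2, 3, 4 or 5 (adjusted p up to 0.0804) and without the filter on low values (0.0746). Sephs2, which makes the selenium donor, fell from 56.1 ± 1.37 to 42.0 ± 2.56 FPKM (SD, n = 5, log2 fold change −0.41, adjusted p = 0.000158 from limma), and Sepsecs, which completes selenocysteine on its tRNA, fell from 23.5 ± 0.662 to 18.4 ± 1.52 FPKM (−0.34, adjusted p = 0.00138). Sepn1 fell by 0.21 and Selt by 0.33 on the log2 scale (adjusted p = 0.0128 and 0.0373 from limma), and Selt was not called under the 4 rescalings or without FL replicate 1, 2, 4 or 5, KO replicate 4 or 5 or the filter (adjusted p = 0.0736 from limma). Among the selenocysteine peroxidases, Gpx1 and Gpx3 were thus called higher, Gpx2 lower, and Gpx4 in neither direction.

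Of 15 genes of oxidative folding in the ER, where Prdx4, Gpx7 and Gpx8 act, 3 were higher and 2 lower. Creld2 (log2 fold change 0.37), the sulfhydryl oxidase Qsox1 (0.32) and Erp29 (0.24) were higher, and Qsox2 (−0.24) and Vkorc1 (−0.20) were lower, the last not under the 4 rescalings nor without FL replicate 3 or KO replicate 1 (adjusted p = 0.00375, 0.00176, 0.0198, 0.00186 and 0.0207 from limma). Of 14 further NRF2 targets 3 were higher (21.4%), 0 lower and 11 not called in limma. The summed FPKM of the 14 overlapped, at 4407 to 5048 in FL and 4409 to 5249 in KO. At an unadjusted p under 0.05 in limma there were 4 higher and 2 lower. The 3 called were Me1 (0.28, adjusted p = 0.0102 from limma), Pgd (0.24, 0.00957) and Slc7a11, the cystine carrier (0.46, 0.0286). Slc7a11 was not called without FL replicate 3, 4 or 5 or KO replicate 1, 4 or 5 (adjusted p up to 0.0678). Nor was it called without the filter (0.0541). Of 16 genes whose products make hydrogen peroxide or superoxide 9 were tested, with 2 called higher and 1 lower. Xdh, xanthine dehydrogenase, rose from 0.811 ± 0.0667 to 2.33 ± 0.344 FPKM (SD, n = 5). Its log2 fold change, which is of FPKM + 1, was 0.87 (adjusted p = 5.55e-05 from limma). Xdh passed the filter on low values only through its KO level, and without a filter its adjusted p from limma was 0.000117. Cyba, a subunit of the phagocyte NADPH oxidase, rose (0.50, adjusted p = 0.00377 from limma) and Maob fell (−0.40, adjusted p = 0.00997). The macrophage markers given above, with sums of 117 to 143 FPKM in FL against 168.5 to 204 FPKM in KO, moved with Cyba, and their part in its change was not tested.

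**Figure D4:**
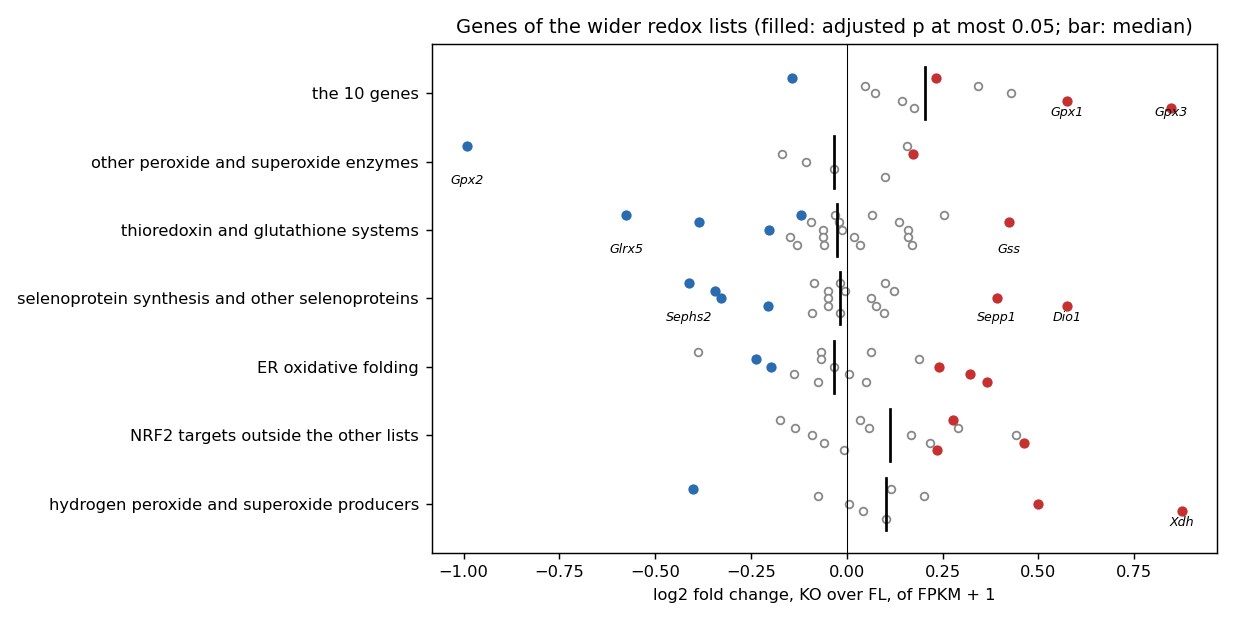
Log2 fold change (KO over FL, of FPKM + 1) of the 10 genes and of the tested genes of 6 wider redox lists. Red points passed as higher and blue points as lower, open points did not pass, and the black bar is the median of each list, 0.20 for the 10 genes and between −0.033 and 0.11 for the others.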

How the data were processed

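Total RNA was made into stranded libraries of polyadenylated RNA and sequenced as 75-nt single-end reads. What the authors deposited is a table of FPKM with a column for each of the 10 libraries. The submitters' processing notes name STAR 2.5.2a and Cuffnorm 2.2.1 with mm10 and GRCm38; the annotation release and the scaling are not given in the sources used here. FPKM do not hold read counts, so no counting error was computed, and 1-read steps were read from single-transcript genes under 0.3 FPKM with 200 nt taken off the exon length.

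The KO effect on log2(FPKM + 1) was fitted in limma 3.58.1 (R 4.3.3, eBayes with a trend, no covariate). The study's threshold (false discovery rate of 0.05, at least 1 FPKM in a group) was kept. Single genes were also compared by exact permutation. The genes named are the 10 members, every called gene of 6 redox lists and, chosen after their values were seen, the uncalled Prdx genes and Gpx5. Also named are Fitm2, markers listed at 0, some of the called markers, genes that overlap a member and the pseudogene Gpx4-ps2. Members and lists were chosen with earlier results of these data known. Gene positions are from GENCODE M21 (GRCm38), where 7 of the 10 identifiers match with their version and the other 3 (Gpx8, Sod1, Sod2) without it. RefSeq promoter windows matched all 10 genes. Alternatives were a pseudocount of 0.1, other filters, 4 rescalings, other eBayes settings, sample weights, the replicate number as a block, and leaving out each library. The scripts were tested on simulated data. Sums and shares over the members, for which a permutation test had been planned, are given without one. The study gives 5 mice per group, so each library was taken as 1 mouse and p-values measure the spread between mice. Python 3.11.15 and matplotlib 3.10.9 were used for summaries and plots.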

Additional observations from a re-analysis of the deposited data

Results flagged for a closer look

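In 9 of 82 groups of 5 libraries examined, 1 library stood far from the other 4, where chance gives about 4.1. Among the 10 genes this was FL replicate 5 for Sod1, at 613 FPKM. Among the other genes it was FL replicate 4 for Txndc5 (124 FPKM), Selt (172 FPKM), Maob (152 FPKM) and Lyz2 (35.2 FPKM), FL replicate 3 for Creld2 (150.0 FPKM), FL replicate 5 for Cyba (7.41 FPKM), KO replicate 2 for Creld2 (219 FPKM) and KO replicate 3 for Pgd (40.3 FPKM).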

How the results depend on the processing

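Of 208 values of the 10 genes under the alternatives, all kept their sign, 183 kept their side of the threshold, 19 lost it and 6 gained it. Gpx1, Gpx3, Gpx4, Gpx7 and Sod1 kept theirs throughout. Cat lost its call without a filter (log2 fold change 0.23, adjusted p = 0.0891) and without a trend (0.23, 0.0534), and ran from 0.17 to 0.28 when a library was left out. Sod2 was at −0.086 with median-ratio rescaling, −0.089 with quantile normalization, −0.10 as TPM and −0.096 with upper-quartile rescaling, and at −0.16 to −0.13 when a library was left out. With sample weights 7 of the 10 were called, with Gpx8 (0.43), Prdx4 (0.21) and Txn1 (0.20) added, while the share of all tested genes called went from 25.5% to 32.7%. Leaving out a library gave 2 to 6 called of the 10 and 19.5% to 26.2% of all tested genes, and Sod1 ran from 0.012 to 0.10, Gpx4 from 0.017 to 0.071, Gpx7 from 0.25 to 0.56, Gpx8 from 0.26 to 0.43, Prdx4 from 0.11 to 0.22 and Txn1 from 0.14 to 0.22. A minimum of 5 FPKM left Gpx7 and Gpx8 untested. A pseudocount of 0.1 put Gpx7 at 0.61 (adjusted p = 0.164 from limma) and Gpx8 at 0.46 (0.0788), with neither called. Gpx1 was then at 0.58 and Gpx3 at 0.85. All p-values here are from limma.

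The sample labels link FL and KO mice by replicate number only. Deviations of same-numbered libraries correlated at −0.10 to 0.003, and no library matched its own number best. The study describes floxed littermates of βFIT2KO mice, but the labels name no litter, so a shared litter could not be modelled. With the replicate number as a block 2 of the 10 were called, Gpx1 and Gpx3, with Sod2 at −0.14 (adjusted p = 0.0825) and Cat at 0.23 (0.0704), and 2368 of all tested genes in place of 3333. Among the other redox genes named, Ccs, Glrx, Txn2, Txndc5, Dio1, Selt, Sepn1, Vkorc1 and Slc7a11 were not called with the block (adjusted p 0.0502 to 0.119), which for Glrx and Sepn1 was the only alternative to end the call. Gpx7 and Gpx8 had the lowest FPKM of the 10.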
